A study of Homo sapiens with 6 samples.

Results

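The genes described here are the Janus kinases and the STAT transcription factors of HuH7 cells, a human hepatoma line. They were taken as the genes of a fixed list of 9 symbols that the array's annotation names, each read by its brightest probe set over the 6 arrays. Of the 9, 7 were measured, 4 kinases (JAK1, JAK2, JAK3 and TYK2) and 3 factors (STAT3, STAT4 and STAT5B), out of 14812 genes in all. Each of the 7 had 1 probe set, and STAT2 and STAT6 were not analysed here. All cells received a plasmid expressing PKR, the kinase that double-stranded RNA activates, together with poly I:C, a synthetic duplex RNA, to induce the long noncoding RNA EGOT. The control group (3 arrays) also received 50 pmol of a control gapmer, and the other group (3 arrays) 50 pmol of a gapmer against EGOT. RNA was taken 36 hours after transfection. A gapmer is a short oligonucleotide that directs RNase H to a complementary RNA, and each group used a single one in a single cell line. Neither group lacked PKR or poly I:C. No label says that the replicates of a group were separate cultures, and the p-values then cover the spread among these 6 samples alone, which may be technical.

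Cytokine receptors carry no kinase domain of their own and depend on Janus kinases bound to their tails. When a ligand joins receptor chains, the kinases phosphorylate each other and the receptor, STAT factors dock there, become phosphorylated, pair up and enter the nucleus. JAK1 and TYK2 serve the type I interferon receptor, whose signal forms ISGF3, a complex containing STAT2 and IRF9 that binds the interferon-stimulated response element (ISRE). JAK1 and JAK2 serve the interferon gamma receptor, and JAK2 serves the receptors for growth hormone, prolactin, erythropoietin and leptin. In liver, STAT3 carries the interleukin-6 signal to acute phase genes, and STAT5B carries the growth hormone signal. JAK3 and STAT4 are known mainly from lymphocytes. Protein phosphorylation is the active step of the pathway, and arrays measure transcript only.

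The sequence that the labels give for each gapmer is shown to identify the reagent that separates the groups.
EGOT gapmer: agagacacttagaaga
control gapmer: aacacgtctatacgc

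EGOT itself was lower in every EGOT gapmer array. Its log2 level was 6.29, 6.79 and 6.71 in control gapmer replicates 1 to 3 and 4.91, 4.90 and 4.69 in EGOT gapmer replicates 1 to 3 (limma adjusted p = 0.00760). Values are log2 RMA levels as deposited, and differences are EGOT gapmer minus control gapmer. Hepatocyte markers were abundant, with ALB, albumin, at 13.68 and AFP, alpha-fetoprotein, at 13.32 with the control gapmer. Array medians lay between 5.08 and 5.23, and EGOT gapmer replicate 2 had the highest. EIF2AK2, the gene for PKR, which all cells also received on a plasmid, read 11.28, 11.25 and 11.24 on the control gapmer arrays. On the EGOT gapmer arrays it read 10.60, 10.76 and 10.69, and it fell by 0.57 (limma adjusted p = 0.0119, 0.0605 to 0.0640 without a control array). The groups did not overlap, so EIF2AK2 read lower on these EGOT gapmer arrays, as 11.5% of all genes did without overlap. EIF2AK2 did not pass with a replicate block (limma adjusted p = 0.0634). The part of PKR in the values below was not tested. Whether the probe set reads the plasmid's transcript is unknown here. Of all 14812 genes, 770 rose and 475 fell at an adjusted p under 0.05 (limma with Benjamini-Hochberg adjustment). Of these calls 61.8% were higher, against 50.2% after another quantile normalization and 48.8% after cyclic loess.

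JAK2 was the 1 measured gene of the family that passed the test, and it fell. JAK2 stood at 0.681 of its control level. JAK1, its partner at the interferon gamma receptor, and STAT5B were also lower in every EGOT gapmer array without passing. JAK3, TYK2, STAT3 and STAT4 had overlapping groups. In counts, 1 of 7 fell and 0 rose, where 3.21% of all genes fell and 5.2% rose. The groups did not overlap in 3 of 7, each lower, where 11.5% of all genes were lower without overlap. The median log2 difference of the 7 was -0.078, beside 0.037 over all genes. The 7 genes are not replicates of one another, and the counts describe this list only.

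**Figure D1:**
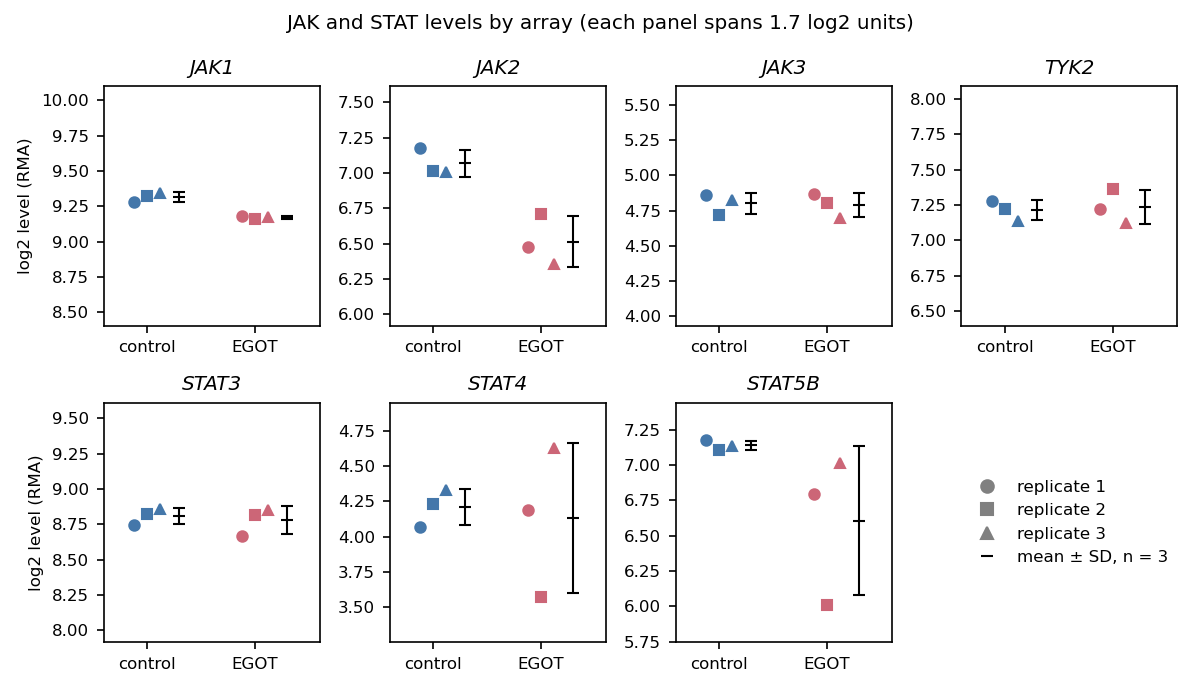
Log2 RMA level of each measured JAK and STAT gene on the 6 arrays, control gapmer in blue and EGOT gapmer in red, with a marker shape per replicate number and the mean ± SD (n = 3) in black. JAK2 is lower on all EGOT gapmer arrays, JAK1 is lower by a small and even step, and STAT5B and STAT4 have 1 low array, EGOT gapmer replicate 2.

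Among the kinases, JAK2 read 7.17, 7.02 and 7.01 in control gapmer replicates 1 to 3 and 6.47, 6.71 and 6.36 in EGOT gapmer replicates 1 to 3. Its highest EGOT gapmer array was below its lowest control array. The group means were 7.07 ± 0.0931 and 6.51 ± 0.181 (SD, n = 3 each). The groups differed by -0.55 on the log2 scale, with a standard error of 0.107 and a 95% interval of -0.81 to -0.30 (limma adjusted p = 0.0293). A two-sided exact permutation test of the 6 values gave p = 0.1, the smallest that 3 arrays against 3 allow. JAK2 was below its control level in each of 13 alternative settings, by 0.43 to 0.65, and passed in 6 of them. It no longer passed when any single array other than EGOT gapmer replicate 2 was left out, with limma adjusted p from 0.0723 to 0.0955. It also did not pass after correction for a trend of the differences with gene span (-0.43, limma adjusted p = 0.0705). JAK2 spans 145559 bases in RefSeq (GRCh38.p14).

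JAK1, the kinase shared by the receptors for all interferon types and for interleukin-6, moved in the same direction by less. JAK1 read 9.28, 9.33 and 9.35 with the control gapmer and 9.18, 9.16 and 9.17 with the EGOT gapmer. The groups did not overlap, and the arrays within each were close together. The pooled SD of JAK1 was 0.0259, and 1.03% of all genes had a smaller one. The log2 difference was -0.15, with a 95% interval of -0.30 to 0.0056, and it did not pass (limma adjusted p = 0.214). JAK1 is the longest of the 7 genes, with a span of 234518 bases, and after the correction for gene span its difference was 0.014 (limma adjusted p = 0.922). The direction of JAK1 therefore depended on that step.

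TYK2, the partner of JAK1 at the type I interferon receptor, did not pass. TYK2 read 7.28, 7.22 and 7.14 with the control gapmer and 7.22, 7.36 and 7.12 with the EGOT gapmer. Its difference of 0.022 had a 95% interval of -0.18 to 0.23 (limma adjusted p = 0.907), and it was -0.029 after quantile and -0.024 after cyclic loess normalization. JAK3, the kinase bound to the common gamma chain of lymphocyte interleukin receptors, read 4.86, 4.72 and 4.83 with the control gapmer. On the EGOT gapmer arrays it read 4.87, 4.80 and 4.70, and it lay under the median probe set of all 6 arrays. Its difference was -0.012, with a 95% interval of -0.20 to 0.17 (limma adjusted p = 0.947). For JAK3 and TYK2 the arrays of the groups were interleaved, and both intervals include a change of the size measured for JAK1. Whether JAK2 differed from the other kinases in its change was not tested.

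**Figure D2:**
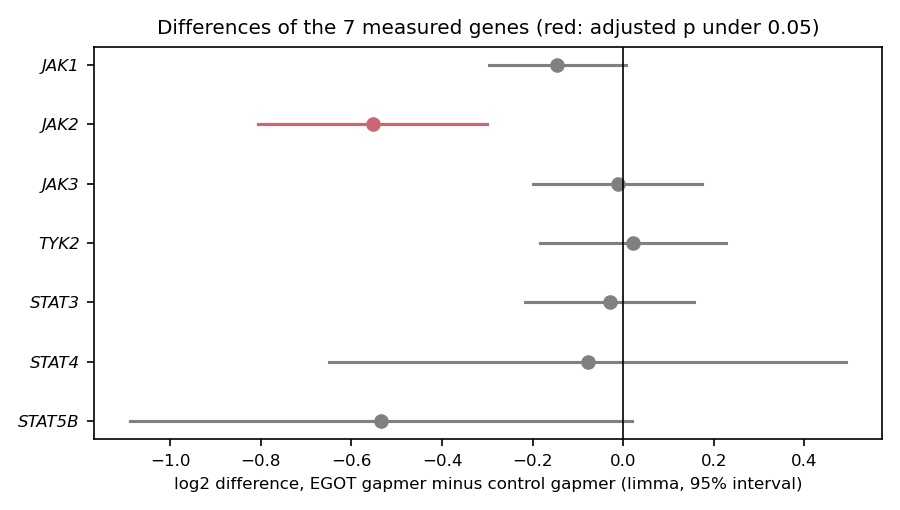
Log2 difference, EGOT gapmer minus control gapmer, of the 7 measured genes with limma's 95% interval, JAK2 in red as the gene with an adjusted p under 0.05. The JAK2 interval runs from -0.81 to -0.30, and the widest intervals are those of STAT4 and STAT5B.

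Among the STAT factors, STAT5B had a mean difference close in size to that of JAK2 but did not pass. STAT5B read 7.18, 7.11 and 7.13 with the control gapmer, an SD of 0.0339. With the EGOT gapmer it read 6.80, 6.01 and 7.01, an SD of 0.527. All EGOT gapmer arrays were below all controls, but replicate 3 only by a small step and replicate 2 by a large one. The log2 difference was -0.53 with a 95% interval of -1.09 to 0.021 (limma adjusted p = 0.214). Without EGOT gapmer replicate 2 it was -0.24 (limma adjusted p = 0.183), and without replicate 3 it was -0.74 (limma adjusted p = 0.121). The pooled SD of STAT5B, 0.374, was larger than that of 97.7% of all genes. STAT5A is a close copy whose gene overlaps that of STAT5B on chromosome 17 in the annotation. STAT5A read 5.78, 5.76 and 5.49 with the control gapmer and 5.56, 5.64 and 5.71 with the EGOT gapmer. Its difference was -0.042 (limma adjusted p = 0.843). The coding sequences of STAT5A and STAT5B are much alike, and how far their probes cross-read was not examined.

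STAT3, the factor that interleukin-6 and its relatives activate, read 8.75, 8.82 and 8.86 with the control gapmer. It read 8.67, 8.82 and 8.85 with the EGOT gapmer, so the highest values of both groups were nearly equal. Its difference of -0.030 had a 95% interval of -0.22 to 0.16 (limma adjusted p = 0.864). STAT4, which transmits interleukin-12 signals in T and NK cells, was below the median probe set on all 6 arrays. STAT4 read 4.07, 4.23 and 4.33 with the control gapmer and 4.19, 3.57 and 4.63 with the EGOT gapmer. Its highest and its lowest array both belonged to the EGOT gapmer group. The difference was -0.078, with a wide 95% interval of -0.65 to 0.49 (limma adjusted p = 0.884), and without EGOT gapmer replicate 2 it was 0.20. STAT4 and STAT5B thus shared their lowest array, EGOT gapmer replicate 2.

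Markers of other cells were set beside these values, since JAK3 and STAT4 are leukocyte genes. Of 13 measured leukocyte markers, 2 rose and 0 fell, where 5.2% of all genes rose and 3.21% fell. Of the 13, 8 were above 0 and 5 below. The 2 that rose were the macrophage marker CD68 (1.06) and the lysozyme gene LYZ (0.57). LYZ has 2 probe sets, and as their mean it rose by 1.13 (limma adjusted p = 0.00577). CD68 did not pass without control gapmer replicate 2 (limma adjusted p = 0.0562), and LYZ not without control gapmer replicate 1, 2 or 3 (limma adjusted p from 0.0607 to 0.0804). The mean over the 13 was 5.80 to 5.97 on the control gapmer arrays and 5.95 to 6.13 on the EGOT gapmer arrays. Of 19 hepatocyte markers 2 rose, HPX and APOA1, and 0 fell, beside the same shares of all genes. In this list 12 were above 0 and 7 below. At an unadjusted limma p under 0.05, 4 were higher and 2 lower, APOB (-0.18) and GPC3 (-0.24). The list's mean was 10.87 to 10.88 on the control gapmer arrays and 10.92 to 10.96 on the EGOT gapmer arrays. HPX passed in 8 of 13 alternatives and in 2 of the 6 that left out 1 array, those without EGOT gapmer replicate 1 or 2. APOA1 passed in 3 of 13 and in 0 of those 6. The count of hepatocyte markers past the threshold was 1 under either other scaling and after correction for gene span, 3 among genes above the median probe set and 7 with a variance trend. In limma's test 0 of 9 endothelial, 0 of 5 fibroblast and stellate and 0 of 5 cholangiocyte markers passed, with 1, 0 and 0 at an unadjusted p under 0.05. Their part in the JAK and STAT values was not tested. All samples were of 1 cell line, so a marker's value is its level in HuH7 RNA and is not read as a share of another cell type.

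Upstream of the kinases, most measured receptors and ligands did not pass. OSMR, the receptor chain for oncostatin M, which signals through JAK1 and STAT3, fell by 0.36 on the log2 scale (limma adjusted p = 0.0280). OSMR read 7.79 ± 0.0216 on the control gapmer arrays and 7.43 ± 0.0577 on the EGOT gapmer arrays (SD, n = 3 each). It was the 1 of 16 measured receptors outside the interferon group that passed, where 3.21% of all genes fell. The median difference of the 16 was -0.029. Of 6 interferon receptor chains 2 were measured, both of the interferon gamma receptor, and neither passed. The difference was 0.25 for IFNGR2, the chain that binds JAK2 (limma adjusted p = 0.0786), and 0.17 for IFNGR1, the chain that binds JAK1 (limma adjusted p = 0.256). Both were higher in all EGOT gapmer arrays than in any control array, as were 2992 of all 14812 genes. IFNGR2 passed in 2 of 13 alternatives, among genes above the median probe set (limma adjusted p = 0.0339) and with a variance trend (limma adjusted p = 0.0306).

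Further receptors known to use JAK2 were looked up after the values had been seen. The receptors for growth hormone, prolactin, erythropoietin and leptin had differences of -0.12 (GHR), -0.15 (PRLR), 0.12 (EPOR) and 0.060 (LEPR), and none of these 4 passed (limma adjusted p from 0.266 to 0.673). Of 22 measured ligands 1 rose and 1 fell, where 5.2% of all genes rose and 3.21% fell. LEP, the gene for leptin, fell by 0.66 (limma adjusted p = 0.0445), and IL21, a T cell cytokine gene, rose by 0.45 (limma adjusted p = 0.0257). LEP was low, with group means of 5.48 (control) and 4.82 (EGOT gapmer), and lay under the median probe set on 2 of the 6 arrays. IL21 was dim, with group means of 2.90 (control) and 3.34 (EGOT gapmer), under the median probe set on all 6 arrays. OSMR and IL21 passed in 0 of the 6 fits that left out 1 array, and LEP in 1 of the 6, the fit without EGOT gapmer replicate 1. After the correction for gene span OSMR was at -0.28 and no longer passed (limma adjusted p = 0.0590).

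The brakes of the pathway did not pass in the reported fit. In limma's test 0 of 10 measured inhibitors passed, with 1 higher and 1 lower at an unadjusted p under 0.05. USP18, an enzyme that strips ISG15 and also blocks JAK1 at the type I interferon receptor, had a difference of -0.48 (limma adjusted p = 0.0839). It passed in 2 of 13 alternatives, among genes above the median probe set (limma adjusted p = 0.0390) and with a variance trend (limma adjusted p = 0.00718). Its groups did not overlap, at 10.86, 11.06 and 10.66 against 10.32, 10.62 and 10.19. The SOCS4 difference was 0.17 (limma adjusted p = 0.185). SOCS1, which inhibits the kinases directly, read 5.90, 5.58 and 5.52 against 5.65, 6.23 and 6.14, a difference of 0.35 (limma adjusted p = 0.266). SOCS3, the brake on gp130 receptors, had a difference of -0.14 (limma adjusted p = 0.462).

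Among 20 measured genes listed as partners of the STAT factors 2 rose and 1 fell, with a median difference of 0.0012. Of all genes 5.2% rose and 3.21% fell. IRF9, the DNA-binding subunit of ISGF3, fell. IRF9 read 9.35, 9.40 and 9.30 with the control gapmer and 8.97, 9.07 and 9.03 with the EGOT gapmer, a difference of -0.33 with a standard error of 0.0696 (limma adjusted p = 0.0356). The groups did not overlap. IRF9 was lower in all 13 alternatives and passed in 6, but in 0 of the 6 that left out 1 array (limma adjusted p from 0.0598 to 0.130). PDCD4, which the list holds, is a translation inhibitor, and its place among STAT partners was not checked. PDCD4 rose by 0.72 (limma adjusted p = 0.0153), and the histone deacetylase gene HDAC2 by 0.32 (limma adjusted p = 0.0345). With 1 array left out PDCD4 passed in 2 of 6 fits and HDAC2 in 0, and HDAC2 did not pass as the mean of its probe sets (0.25, limma adjusted p = 0.147) or after the correction for gene span (0.31, limma adjusted p = 0.05002).

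**Figure D3:**
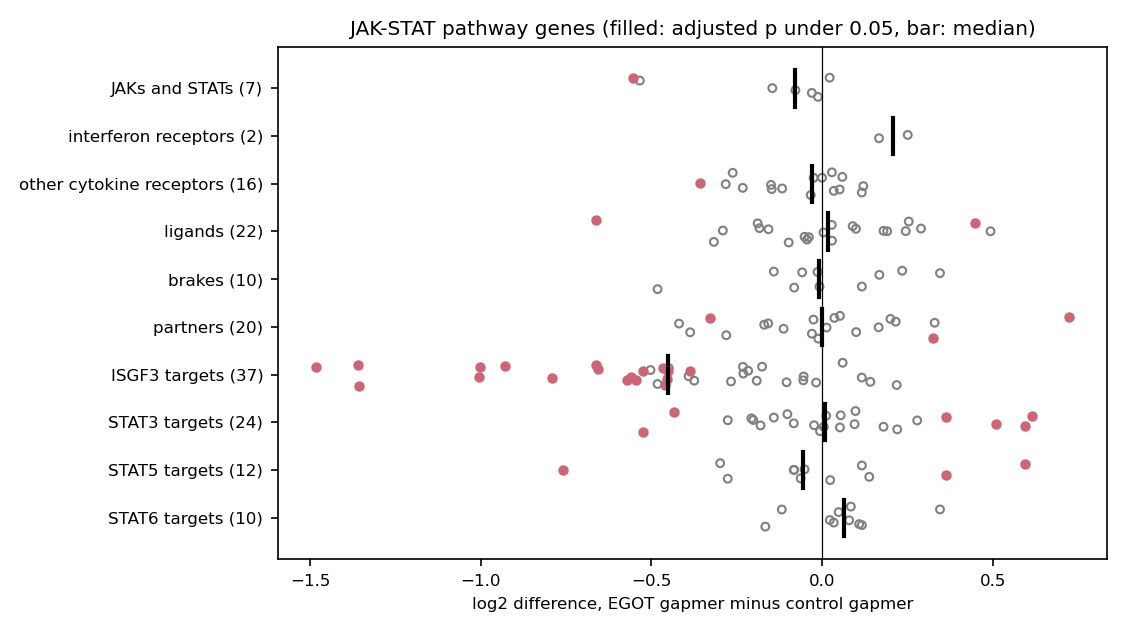
Log2 difference, EGOT gapmer minus control gapmer, of each measured gene in the JAK and STAT family and in 9 lists of pathway genes, with the number measured in brackets, filled red where the adjusted p is under 0.05 and with a black bar at each median. The ISGF3 targets lie mostly left of 0, with a median of -0.45, while the medians of the STAT3, STAT5 and STAT6 target lists lie within 0.07 of 0.

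Among the lists of targets downstream, that of ISGF3 held the most genes past the threshold. The activity of ISGF3 was not measured, and STAT2 was not analysed here. Of 37 measured ISGF3 targets 18 fell and 0 rose, with a median of -0.45, where 3.21% of all genes fell. Of the 37, 33 were below 0 and 4 above. The list was written with earlier results of these data known, so the count describes this list and tests nothing. EIF2AK2, lower as given above, is 1 of the 18. The mean over the 37 was 7.76, 7.89 and 7.62 with the control gapmer and 7.29, 7.39 and 7.22 with the EGOT gapmer. The count of targets that fell was 20 under either other scaling and 1 to 13 when 1 array was left out, the lowest being without control gapmer replicate 2. Genes of this list are also known to answer to other factors, such as interferon regulatory factors.

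The ISRE letters are shown for the 4 ISGF3 targets with the smallest p, because they are the sequence by which ISGF3 is known to bind. Each line gives 30 bases of RefSeq promoter sequence (GRCh38.p14, 5′ to 3′ on the gene's strand), and capitals mark the match on either strand to GAAA, any 2 bases, GAAA.
DDX60L (chr4:168480553-168480582, minus strand): gaaaactgcgGAAATCGAAAaggcctcgcg
IFI44L (chr1:78620274-78620303, plus strand): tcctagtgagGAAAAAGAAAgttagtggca
RSAD2 (chr2:6877622-6877651, plus strand): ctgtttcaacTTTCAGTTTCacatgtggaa
DDX60 (chr4:168318821-168318850, minus strand): gtgctgaaggGAAACTGAAAcctaagtgct
The log2 differences of these genes were -1.36 (DDX60L), -1.48 (IFI44L), -1.36 (RSAD2) and -1.01 (DDX60). Of the 37 targets 29 had a promoter in the table, and 20 of these 29 (69.0%) held the ISRE letters within 250 bases before to 50 after a start. Among the 17 with a promoter that fell, 12 (70.6%) held them, close to the share of all 29. The letters were held by 3.89% of the 10736 tested genes with a promoter and 4.38% of all 27305 genes in the table. The list was written from genes known to answer to ISGF3, so a high share goes with the list. Its link to the fall was not tested.

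The promoters of the kinases and STAT factors held none of these letters. Neither the ISRE nor the STAT dimer motif TTCNNNGAA, searched on both strands, was found at any listed start of the 7 measured genes, where 8.77% of tested genes held the latter. The same bases can match both motifs. The JAK2 stretch shown is the 100 bases before its outermost listed start, as the member that fell.
JAK2 (chr9:4984290-4984389, plus strand, GRCh38.p14): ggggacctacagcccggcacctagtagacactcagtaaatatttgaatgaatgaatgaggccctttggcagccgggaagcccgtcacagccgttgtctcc
A search of this kind says only that the letters are not in these windows.

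Targets of STAT3 and STAT5 rose in some cases and fell in others, and no STAT6 target passed. Of 24 measured STAT3 targets 4 rose and 2 fell, with a median of 0.0086, where 5.2% of all genes rose and 3.21% fell. BIRC5, the apoptosis inhibitor survivin, rose by 0.51 (limma adjusted p = 0.0130), the kinase gene PIM2 by 0.59 (limma adjusted p = 0.0197) and the protease inhibitor gene TIMP1 by 0.61 (limma adjusted p = 0.0304). PIM1 rose by 0.36 (limma adjusted p = 0.0389). The list's 2 falls were ICAM1, an adhesion gene, by 0.43 (limma adjusted p = 0.0172), and HAMP, the hepcidin gene, which fell by 0.53 (limma adjusted p = 0.0341) and was named after its value was seen. Of 12 measured STAT5 targets 2 rose and 1 fell, with a median of -0.057, beside the same shares of all genes. The rises were PIM1 and PIM2, which the STAT3 list also holds, and the fall was IGFBP3, a carrier of insulin-like growth factors, by 0.76 (limma adjusted p = 0.0130). CISH and SOCS2, feedback genes of STAT5 also picked after their values were seen, had differences of 0.12 (limma adjusted p = 0.641) and -0.082 (limma adjusted p = 0.705). In limma's test 0 of 10 STAT6 targets passed, with 1 lower at an unadjusted p under 0.05. Of its leading genes, PPARG was at -0.17 (limma adjusted p = 0.181) and SOCS1 is given above. PIM1 and HAMP held in 0 of the 6 fits that left out 1 array, TIMP1 in 1, and BIRC5, PIM2, ICAM1 and IGFBP3 in 2. After the correction for gene span PIM1 was at 0.31 (limma adjusted p = 0.0658) and TIMP1 at 0.57 (limma adjusted p = 0.0517).

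The genes whose values ran closest to JAK2 over the 6 arrays were sought among 11909 other protein-coding genes by the distance between mean-centred profiles. They were KNSTRN, a spindle protein gene (Pearson r = 0.994), the RNA acetyltransferase gene NAT10 (r = 0.993), SP110, a nuclear body gene (r = 0.985), and the syntaxin gene STX18 (r = 0.985). Their log2 differences were -0.50, -0.52, -0.53 and -0.53, beside -0.55 for JAK2. All 4 shared with JAK2 a least reduced EGOT gapmer array, replicate 2. The 6 points fall into 2 groups, so these values of r largely reflect the group difference. SP110 is also on the list of ISGF3 targets.

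**Figure D4:**
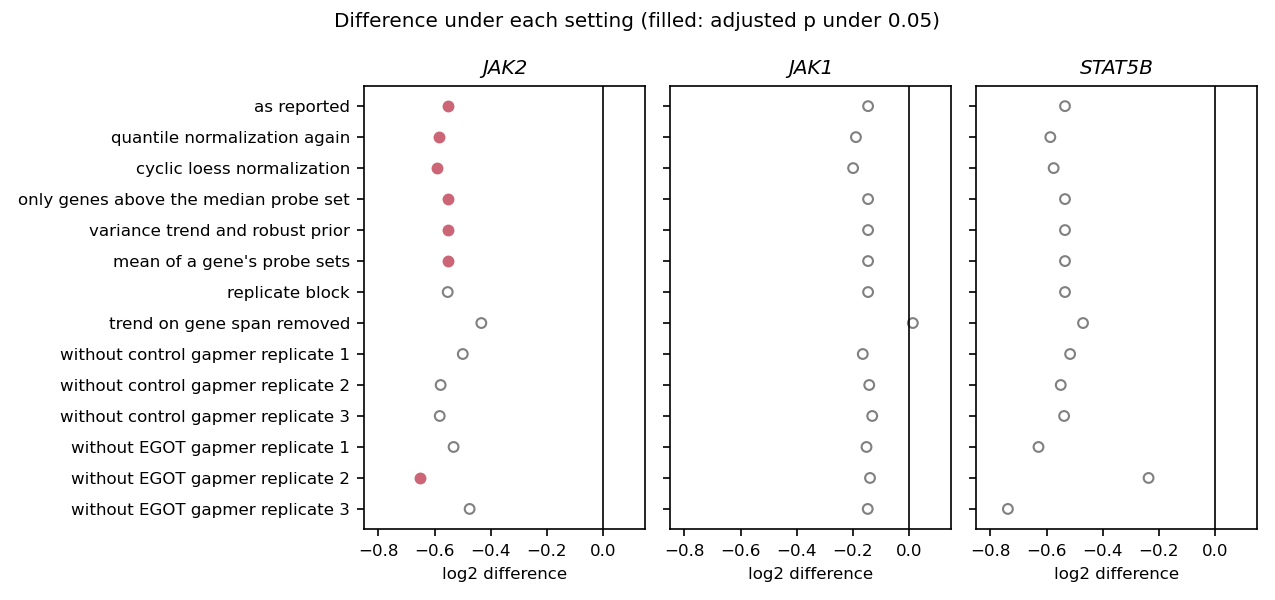
Log2 difference, EGOT gapmer minus control gapmer, of JAK2, JAK1 and STAT5B in the reported fit and in 13 alternative settings, filled red where the adjusted p is under 0.05. JAK2 stays between -0.65 and -0.43 and passes in 6 of 13 alternatives, JAK1 reaches 0.014 once the trend on gene span is removed, and STAT5B moves to -0.24 without EGOT gapmer replicate 2.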

How the data were processed

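Total RNA of 6 HuH7 samples was hybridised to an Affymetrix whole-transcript array. The deposited values are log2 levels that the authors made with RMA, per the submitters' processing notes. For its version, software and filters, nothing is stated in the sources used here. RMA fixes a shared distribution, so a change in total RNA per cell would not be seen, and low values are compressed.

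Of 44629 probe sets 15835 had 1 gene symbol in GEO's platform annotation, 0 had several and 28794 were not named here. The 14812 genes were fitted with limma 3.58.1 in R 4.3.3 (lmFit and eBayes, two-sided, Benjamini-Hochberg over all genes, threshold 0.05, 7.19 degrees of freedom), without a filter. In simulated data with normal noise, the fit recovered 52% of 100 changes of 0.5 log2 and 95% of 100 changes of 1. Of its 156 calls 9 were false. The lists of receptors, ligands, brakes, partners, targets and markers were written from textbook roles, and the place of PDCD4 among the partners was not checked. The members and lists were chosen with earlier results of these data known. Genes named are all members, EGOT, preset pathway genes, and in each list up to 4 genes past the threshold by smallest p, or the 2 with the smallest p. Of the preset genes IFNAR1, IFNAR2, IL6ST and PTPN11 were not analysed here. Alternatives were another quantile normalization, cyclic loess, a filter on dim genes, a variance trend with a robust prior, the mean of a gene's probe sets, a replicate block, removal of a lowess trend on RefSeq gene span, and leaving out each array. Promoters are RefSeq sequence. Precision is limited by 3 arrays per group.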

Additional observations from a re-analysis of the deposited data

How the results depend on the processing

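The replicate block, on the numbers in the titles, left 0 genes, 0 JAK or STAT members and 0 ISGF3 targets past the threshold in limma, with 3438 genes and 2 members (JAK2 and STAT5B) at an unadjusted p under 0.05. EGOT was then at -1.76 (limma adjusted p = 0.0543) and JAK2 at -0.55 (limma adjusted p = 0.0768). Same-numbered arrays of the groups had correlations of -0.031, -0.054 and 0.039 in their deviations from the group means. Such values cannot show whether same-numbered samples were handled together, and the labels do not say. With the trend on gene span removed 679 genes and 0 members passed, with 3472 genes and 1 member (JAK2) at an unadjusted p under 0.05. JAK1 was then at 0.014, TYK2 at -0.010, STAT3 at 0.014 and STAT4 at 0.023. The genes past the threshold numbered 2110 among genes above the median probe set (5 members tested) and 2502 with a variance trend, with JAK2 the 1 member in each. TYK2 was at -0.029 after quantile and -0.024 after cyclic loess normalization. Leaving out 1 array gave 9 to 579 genes, 0 to 1 members and 1 to 13 ISGF3 targets past the threshold. Over those fits JAK3 ran from -0.053 to 0.035, TYK2 from -0.042 to 0.079, STAT3 from -0.066 to 0.026, STAT4 from -0.33 to 0.20 and STAT5A from -0.14 to 0.0097. The causes were not tested, beyond the fewer arrays or genes that a setting uses. The members' median difference, -0.078 as reported, was -0.010 with the trend on gene span removed and -0.15 without control gapmer replicate 1. In every setting run it moved by less than the spread of the members' mean between arrays, 0.073. That spread is nearly as large as the median itself, so it cannot show that the median was stable. An exact permutation test cannot give a p under 0.1 here, so it bears on no call. Groups of 3 arrays were not tested for outlying samples.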

Other observations

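The position of each member in RefSeq's gene order gave values for its nearest measured protein-coding neighbours, looked up after the values had been seen. JAK2 lies between RCL1 and INSL6, of which INSL6 overlaps it in the annotation. RCL1 differed by -0.019 (limma adjusted p = 0.901) and INSL6 by -0.18 (limma adjusted p = 0.390) on the log2 scale. Neither neighbour passed. STAT5B, STAT5A and STAT3 stand in a row on chromosome 17, where STAT5A overlaps STAT5B in the annotation, and none of these 3 passed. CAVIN1, a caveolar coat gene on the far side of STAT3, rose by 0.67 (limma adjusted p = 0.0170), and GHDC, before STAT5B, had a difference of 0.21 (limma adjusted p = 0.123). TYK2 lies between ICAM3, with a difference of 0.18 (limma adjusted p = 0.240), and CDC37, a kinase chaperone gene, with one of 0.23 (limma adjusted p = 0.118).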
